A study of Mus musculus with 20 samples.

Results

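The 10 genes described here were the Myc network genes Myc, Mycn, Mycl, Max, Mxd1, Mxd4, Mxi1, Mlx and Mnt, together with Myb. They were found by symbol among the 24315 genes of each table, and all 10 passed the filter on low values in both cell types. RNA was sequenced from LSK cells (Lin-Sca1+Kit+, the bone marrow fraction that holds the stem cells) and from MEP (megakaryocyte-erythroid progenitors) sorted from the bone marrow of C57BL/6 mice. Each cell type had 3 WT, 3 Dnmt3a-/-, 2 Bcor-/- and 2 Bcor-/-Dnmt3a-/- libraries, and both libraries of a mouse carry the same mouse name. The conditional alleles were deleted with Mx1-Cre, an interferon-inducible Cre that is not restricted to blood cells, after pIpC. The label of Bcor-/- replicate 1 names 2 mice, so this library may hold pooled cells. The study's text calls the Bcor-/-Dnmt3a-/- mice of this comparison leukemic, whereas the labels give no disease stage, and neither gives ages for these libraries. Levels are FPKM (sequenced fragments corrected for transcript length and for the number mapped in the library), and differences are on the log2(FPKM + 1) scale, which understates the change of low genes.

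Myc, Mycn and Mycl are basic helix-loop-helix transcription factors that bind the E-box CACGTG as heterodimers with Max and raise the transcription of genes for ribosome production, nucleotide synthesis and growth. Mxd1, Mxd4, Mxi1 and Mnt also pair with Max but recruit repressor complexes to the same sites, and the Mxd genes are known to rise when blood cells stop dividing and mature. Mlx is the partner of a parallel branch that senses nutrients, and Myb is a separate transcription factor required for definitive blood formation, which is high in immature progenitors and is shut off as red cells mature.

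CACGTG was searched in the RefSeq promoters (GRCm38.p6, 250 bases before to 50 after the start), which were given for 9 of the 10 members, Myc being the exception. The motif is its own reverse complement, so 1 search covers both strands. It stood in the promoters of 4 members, all of them partners or antagonists rather than Myc genes, while 2349 of 32851 promoters (7.15%) held it. The stretches are shown because CACGTG is the sequence on which the products of these genes meet, with the motif in capitals and 12 bases on either side.
Max: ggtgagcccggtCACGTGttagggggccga
Mlx: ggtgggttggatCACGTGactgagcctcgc
Mnt: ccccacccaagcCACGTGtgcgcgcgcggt
Mxd4: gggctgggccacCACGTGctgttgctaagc
The Max stretch lies at chr12:76962234-76962263 on the minus strand, with the motif beginning at position -3 from the start site. For Mlx it lies at chr11:101087238-101087267 on the plus strand with the motif at -40, for Mnt at chr11:74830789-74830818 on the plus strand with the motif at -123, and for Mxd4 at chr5:34187912-34187941 on the minus strand with the motif at -219. No E-box of these letters stood in the windows of Mycn, Mycl, Mxd1, Mxi1 or Myb. These coordinates are of GRCm38 and were not joined to the deposited tables, for which the processing notes name another build, mm9. A match is a description of the letters, and no binding was measured.

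The Bcor-/-Dnmt3a-/- libraries stood apart in the markers of their gate and of other cell types, and so, to a smaller extent, did the Bcor-/- libraries. The summed FPKM of 8 stem cell and LSK genes was 1070 to 1237 in WT LSK, 818 and 551 for Bcor-/-, and 181 and 366 for Bcor-/-Dnmt3a-/-. In Bcor-/-Dnmt3a-/- LSK, Cd34 was 5.87 and 37.3 FPKM against 548 to 650 in WT. Kit, Flt3, Hlf, Mecom and Procr also lay below WT in both libraries. Ly6a did not fall, at 63.5 and 220 FPKM against 59.8 to 70.7. Slamf1 was 3.69 and 2.14 FPKM against 2.43 to 3.94. The summed FPKM of 9 erythroblast genes was 6365 and 23957 in Bcor-/-Dnmt3a-/- LSK and 210.5 and 254.9 in Bcor-/- LSK against 77.6 to 164 in WT, and 4349 and 96929 in Bcor-/-Dnmt3a-/- MEP against 940 to 1557. In Bcor-/- MEP this sum was 864 and 756, below every WT library. Bcor-/-Dnmt3a-/- replicate 2 held the larger sum of its genotype in both cell types, although Hbb-b1 was listed at 0 in its MEP library. The 6 B cell genes summed to 2422 and 1121 in LSK against 39.5 to 81.6 in WT, and to 1867 and 121 in MEP against 20.5 to 111. The 6 macrophage genes summed to 1378 and 106 FPKM in LSK against 53.4 to 308 in WT, and to 722 and 26.5 in MEP against 6.08 to 10.1, so replicate 1 was the higher in both. The 7 MEP genes summed to 268 and 806 FPKM in Bcor-/-Dnmt3a-/- MEP against 585 to 621 in WT, and granulocyte genes summed to 6759 and 15225 in Bcor-/-Dnmt3a-/- MEP against 310 to 737. In Bcor-/- LSK the 8 granulocyte genes summed to 16125 and 23036 against 3269 to 12898 in WT, where WT replicate 2 held the highest value. Of these genes only Mpo (4710 and 8426 FPKM against 785 to 1532), Elane and Prtn3 lay above WT there. S100a8 (2796 and 2648 against 760 to 4389), S100a9, Ngp and Camp lay within the WT range. In Bcor-/-Dnmt3a-/- MEP, S100a8, S100a9, Ngp, Camp and Ltf lay above WT in both libraries. Mpo, Elane and Prtn3 did so in replicate 2 only. The Bcor-/-Dnmt3a-/- libraries were compared with the same WT libraries and the same Bcor-/- libraries throughout. The 6 T cell genes summed to 83.2 and 270 FPKM in LSK against 25.1 to 32.1 in WT and to 68.3 and 46.0 in MEP against 5.89 to 8.24, while the 6 megakaryocyte genes were lower, at 14.3 and 49.5 against 97.4 to 117 and at 17.8 and 70.6 against 86.4 to 334. The erythroblast, B cell, T cell and megakaryocyte sums thus lay outside the WT range in both Bcor-/-Dnmt3a-/- mice and both cell types, the stem cell sum in LSK and the granulocyte sum in MEP, whereas granulocyte genes in Bcor-/-Dnmt3a-/- LSK (8190 and 8147) lay within it. The part of these sums in the results given below was not tested. Since RNA of a sorted fraction was measured as a whole, fewer cells of a type and less RNA per cell cannot be told apart.

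The RNA of the deleted genes did not follow the labels closely. Bcor in LSK was 29.5 to 32.4 FPKM in WT, 22.4 and 23.2 after loss of Bcor, and 24.0 and 37.4 after loss of both genes. Dnmt3a in LSK was 16.1 to 19.9 FPKM in WT, 11.3 to 16.9 in Dnmt3a-/-, and 10.4 and 10.9 in Bcor-/-Dnmt3a-/-. In MEP, Dnmt3a was 5.49 to 6.64 FPKM in WT, 2.56 to 5.40 in Dnmt3a-/-, and 6.85 and 3.44 in Bcor-/-Dnmt3a-/-, so 1 double knockout library lay above WT. Bcor in MEP was 21.3 to 26.9 FPKM in WT, 19.5 and 22.4 after its loss, and 19.6 and 26.7 in Bcor-/-Dnmt3a-/-. Whole-gene FPKM can include fragments from exons that remain, and no values per exon were used here, so these values are no check of either deletion. The study reports that its PCR did not detect Bcor mRNA in LSK of Bcor-/- mice. It also reports a western blot in which Bcor protein was lost from Lin- marrow cells. Deletion of Dnmt3a is described there as partial in Dnmt3a-/- mice and complete only in leukemic Bcor-/-Dnmt3a-/- mice.

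**Figure D1:**
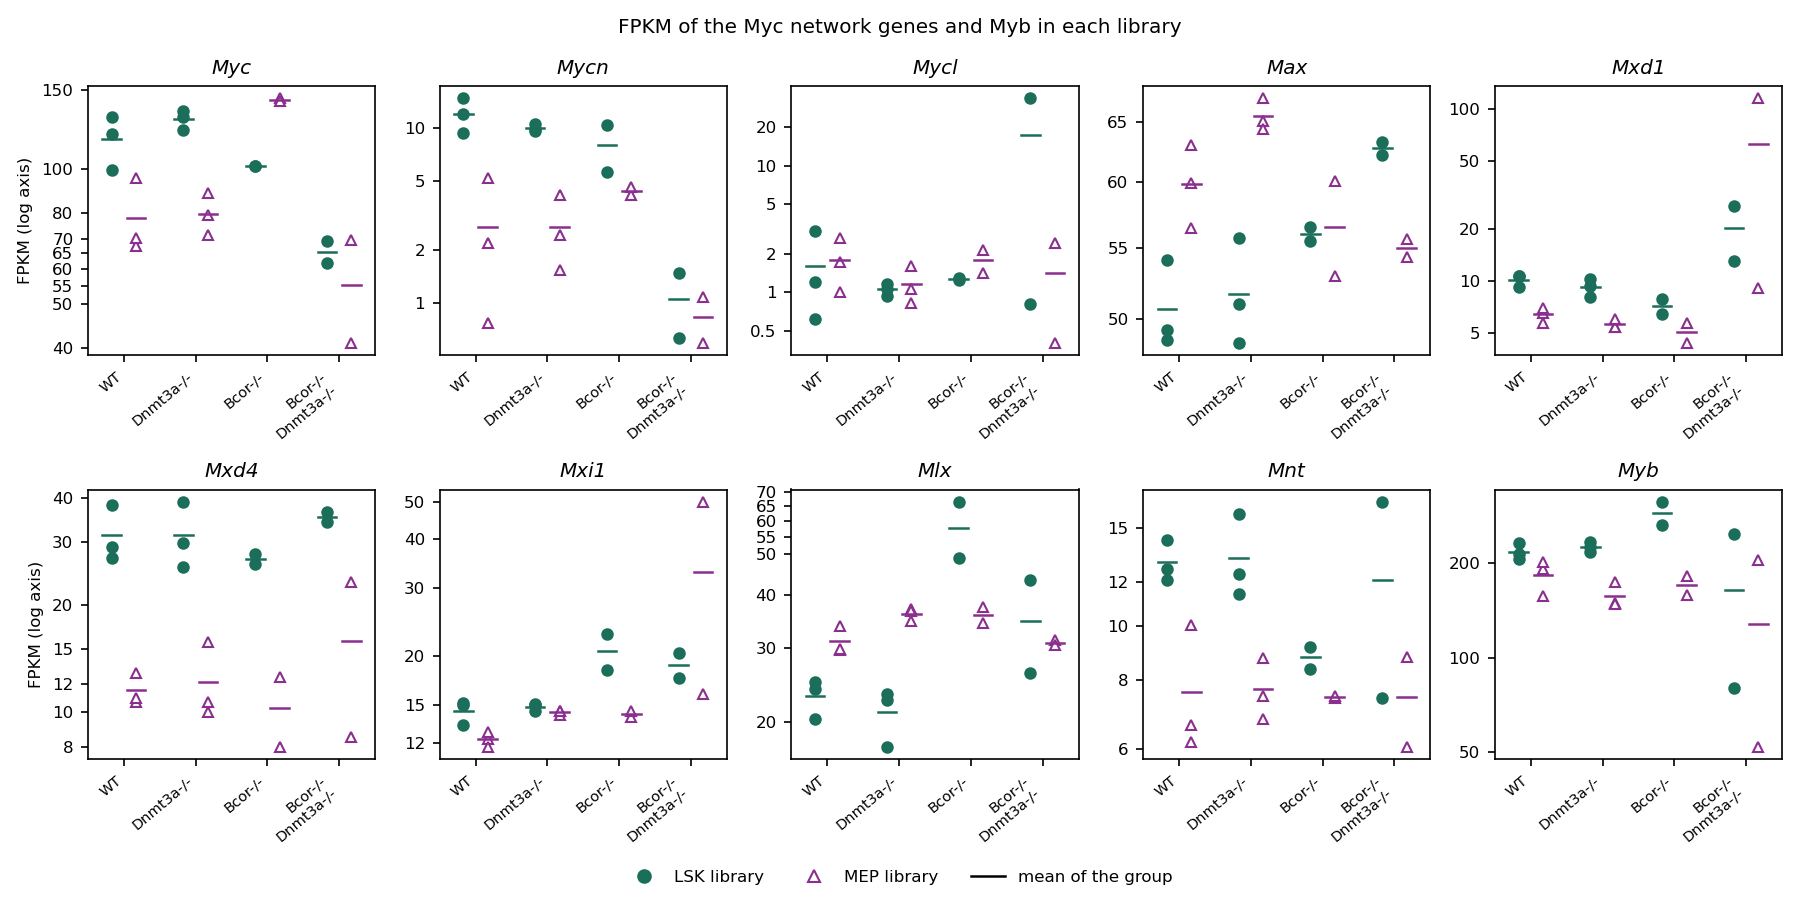
FPKM (log axis, scaled separately for each gene) of the 10 genes in each library, by genotype, with LSK libraries as filled circles, MEP libraries as open triangles and short lines for group means. Among LSK libraries Mycn is lowest in Bcor-/-Dnmt3a-/- (0.627 and 1.48 FPKM), Myc is highest in Bcor-/- MEP (144 and 142 FPKM), and in MEP Mxd1, Mxi1 and Myb differ between the Bcor-/-Dnmt3a-/- replicates.

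In WT cells the network was carried mainly by Myc, Max and Mxd4 in LSK and by Myc, Max and Mlx in MEP. Mean FPKM in WT LSK was 217 ± 13.4 for Myb (SD, n = 3), 117 ± 15.6 for Myc, 50.7 ± 3.0 for Max, 31.4 ± 6.01 for Mxd4 and 23.0 ± 2.41 for Mlx. Mxi1, Mnt, Mycn and Mxd1 lay between 14.5 and 10.2 FPKM on average, with ranges that overlapped between neighbours in this order, and Mycl was lowest at 1.62 ± 1.26. In WT MEP the order was Myb (184 ± 23.1), Myc (77.9 ± 15.5), Max (59.8 ± 3.32) and Mlx (31.1 ± 2.41), followed by Mxi1, Mxd4, Mnt and Mxd1 between 12.3 and 6.44, Mycn at 2.72 ± 2.26 and Mycl at 1.81 ± 0.85. Myc supplied 88.6% to 90.5% of the summed Myc, Mycn and Mycl FPKM in WT LSK and 93.2% to 97.5% in WT MEP. The cell types stand in separate tables whose scaling to each other is not given in the sources used here, so levels were not tested between them.

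Myc and Mycn were lower in LSK of Bcor-/-Dnmt3a-/- mice than in WT. Myc was 99.8, 131 and 119 FPKM in the WT libraries and 69.2 and 61.8 in the Bcor-/-Dnmt3a-/- libraries. Both mutant values lay below every WT, Dnmt3a-/- and Bcor-/- library. The log2 fold change was -0.81 ± 0.13 (SE), with an adjusted p of 0.0016, and it stayed between -0.92 and -0.73 when single libraries were left out. Mycn, the family member linked to stem cell self-renewal, was 9.29, 12.1 and 14.8 FPKM in the WT LSK libraries, compared with 0.627 and 1.48 for Bcor-/-Dnmt3a-/-. The group means of 12.05 and 1.05 FPKM did not come from overlapping values, and the log2 fold change was -2.68 ± 0.28 (adjusted p = 0.00022). Mycl was 1.22, 3.04 and 0.618 FPKM in the WT LSK libraries, compared with 0.810 and 33.9 for Bcor-/-Dnmt3a-/-. Its log2 fold change of 1.71 ± 0.98 (adjusted p = 0.22) rested on replicate 2 and became -0.43 without it.

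In all, 3 of the 10 genes were called in Bcor-/-Dnmt3a-/- LSK against WT, where a call needs a fold change above 1.5 with p under 0.05 before adjustment. Myc and Mycn were called lower and Mxd1 higher, and each also had an adjusted p under 0.05. Of all 11952 genes tested, 28.3% were called in this comparison, 15% higher and 13.3% lower, so the share among these genes was close to the background. Without Bcor-/-Dnmt3a-/- replicate 1 the count was 6, against 39.6% of all genes, and without replicate 2 it was 3, against 32.2%. The genes called without replicate 2 were not the same 3, since Mxd1 was at 0.33 and Mnt at -0.73 there. Groups that did not overlap were common, at 6 of the 10 genes and 49.6% of all genes here, and lack of overlap alone is therefore no result about a member. The exact permutation test of single genes cannot go below p = 0.1 with 2 libraries against 3, and it gave 0.1 for Myc, Mycn and Mxd1.

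**Figure D2:**
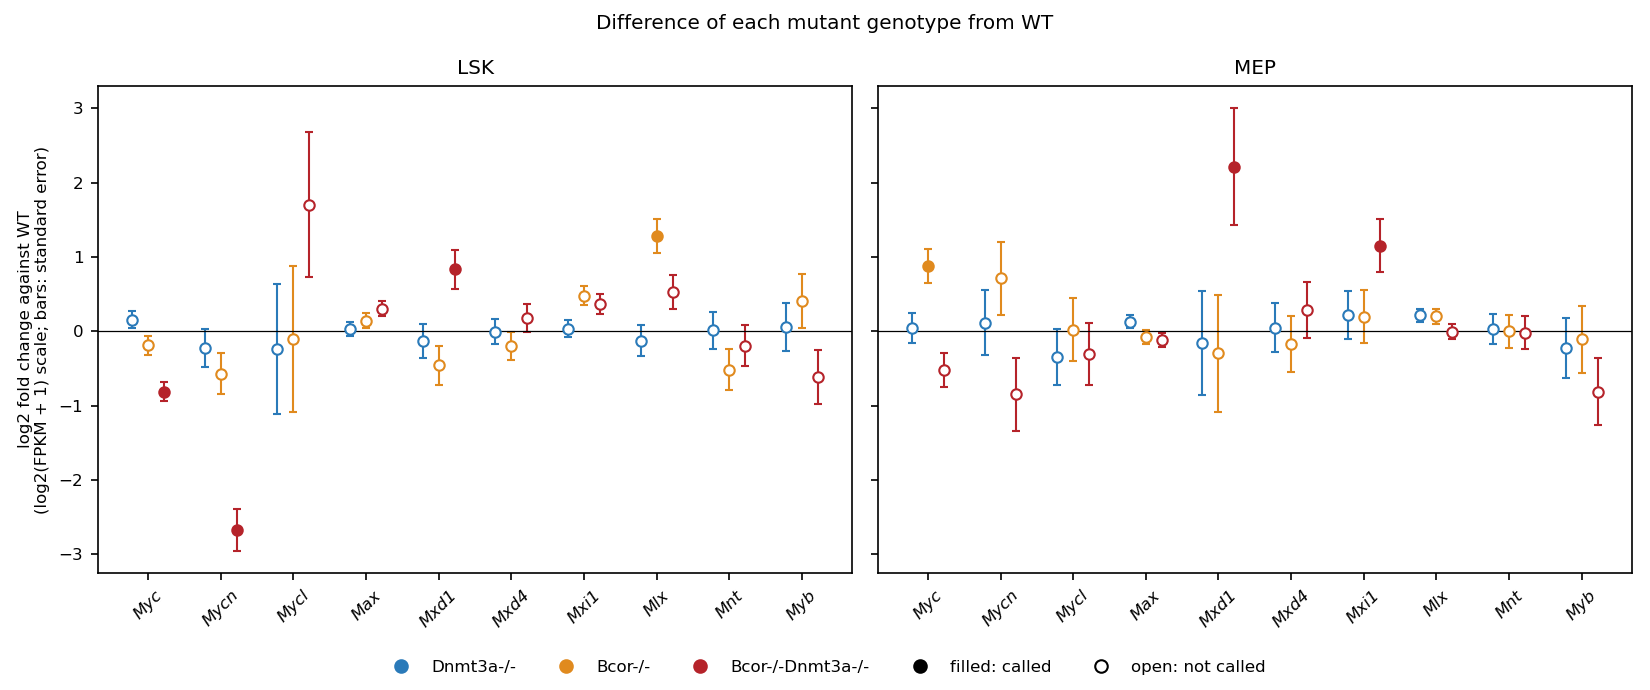
Log2 fold change against WT with its standard error for each gene in LSK (left) and MEP (right), for Dnmt3a-/-, Bcor-/- and Bcor-/-Dnmt3a-/-, with filled symbols for called genes. The called values are Myc, Mycn and Mxd1 (Bcor-/-Dnmt3a-/-) and Mlx (Bcor-/-) in LSK, and Mxd1 and Mxi1 (Bcor-/-Dnmt3a-/-) and Myc (Bcor-/-) in MEP.

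Max, the obligate partner, stayed within the fold threshold in both cell types. It was 49.2, 54.1 and 48.6 FPKM in the WT LSK libraries, compared with 62.2 and 63.3 for Bcor-/-Dnmt3a-/- LSK. Both mutant libraries lay above all others of the cell type, with an adjusted p of 0.049, but the log2 fold change of 0.31 ± 0.10 was under the fold required for a call. In MEP, Max was 56.5, 63.1 and 59.98 FPKM in the WT libraries, compared with 54.3 and 55.6 for Bcor-/-Dnmt3a-/-, a log2 fold change of -0.12 ± 0.09 (adjusted p = 0.35).

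Among the antagonists, Mxd1 was higher in Bcor-/-Dnmt3a-/- cells of both types, and most of the rise was in replicate 2. Mxd1 was 10.8, 10.7 and 9.26 FPKM in the WT LSK libraries, compared with 13.1 and 27.5 for Bcor-/-Dnmt3a-/- LSK. The groups did not overlap, and the log2 fold change of 0.84 ± 0.26 (adjusted p = 0.04) fell to 0.33 without replicate 2, which ended the call. In MEP, Mxd1 was 6.56, 7.04 and 5.70 FPKM in the WT libraries, compared with 9.20 and 115 for Bcor-/-Dnmt3a-/-. Both mutant values again exceeded WT, with a log2 fold change of 2.21 ± 0.79 (adjusted p = 0.06) that ranged from 0.46 to 3.97 with single libraries left out and was no longer called without replicate 2 or without WT replicate 3. Mxi1, an antagonist of the same family, followed this split in MEP. It was 12.2, 12.8 and 11.7 FPKM in the WT MEP libraries, compared with 16.0 and 49.9 for Bcor-/-Dnmt3a-/- MEP, a log2 fold change of 1.15 ± 0.36 (adjusted p = 0.04). Leaving out single libraries moved this value between 0.36 and 1.94, and the call was lost without replicate 2, whose MEP library took 13.6% of its summed FPKM from globin genes against 0.836% in replicate 1 and at most 0.151% in the other MEP libraries. In LSK, Mxi1 was 14.98, 13.3 and 15.2 FPKM in the WT libraries, compared with 20.4 and 17.6 for Bcor-/-Dnmt3a-/-, without overlap but under the fold threshold (log2 fold change 0.37 ± 0.13, adjusted p = 0.061).

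Mxd4 and Mnt did not pass the test in either cell type with all libraries. Mxd4 was 27.0 to 38.3 FPKM in the WT LSK libraries, compared with 34.1 and 36.5 for Bcor-/-Dnmt3a-/- LSK (log2 fold change 0.18 ± 0.19, adjusted p = 0.52). In MEP it was 10.7 to 12.9 FPKM in WT, 23.2 in Bcor-/-Dnmt3a-/- replicate 1 and 8.54 in replicate 2, so the mutant mice lay on opposite sides of WT (0.29 ± 0.37, adjusted p = 0.58). Mnt, the antagonist that is present in dividing and resting cells alike, was 12.1 to 14.3 FPKM in the WT LSK libraries, compared with 7.42 and 16.7 for Bcor-/-Dnmt3a-/- LSK, again on either side of WT (-0.20 ± 0.28, adjusted p = 0.63). In MEP, Mnt was 6.19 to 10.03 FPKM in the WT libraries, compared with 6.07 and 8.80 for Bcor-/-Dnmt3a-/-.

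In Bcor-/-Dnmt3a-/- MEP, 2 of the 10 genes were called against WT, Mxd1 and Mxi1, both higher. The count was 1 without WT replicate 3 and 4 without Bcor-/-Dnmt3a-/- replicate 1, against 30.6% and 41.8% of all genes. Without replicate 2 it was again 2 (35.8% of all genes), but neither gene was the same, since Mxd1 (0.46) and Mxi1 (0.36) lost their calls and Mxd4 (0.96) and Mycl (-0.96) were called. Of all 10933 genes tested in MEP, 30.9% were called, 18.5% higher and 12.4% lower, and the groups did not overlap for 50.5%, against 3 of the 10 members. Centring each library on its median lowered the median log2 fold change of all genes in this comparison from 0.02 to -0.14 and turned the split to 14.3% higher and 19.6% lower. Myc was 67.6, 70.3 and 95.7 FPKM in the WT MEP libraries, compared with 69.4 and 41.0 for Bcor-/-Dnmt3a-/- MEP. Replicate 1 lay within the WT range and replicate 2 below it, and the log2 fold change of -0.52 ± 0.23 (adjusted p = 0.11) was not called, although it passed the thresholds after centring on the median (-0.67), without WT replicate 1 (-0.61) and without Bcor-/-Dnmt3a-/- replicate 1 (-0.89). Mycn was 2.21, 0.767 and 5.20 FPKM in the WT MEP libraries, compared with 0.589 and 1.08 for Bcor-/-Dnmt3a-/- MEP, overlapping (log2 fold change -0.85 ± 0.49, adjusted p = 0.21), and it was called only after quantile normalization and without WT replicate 2.

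**Figure D3:**
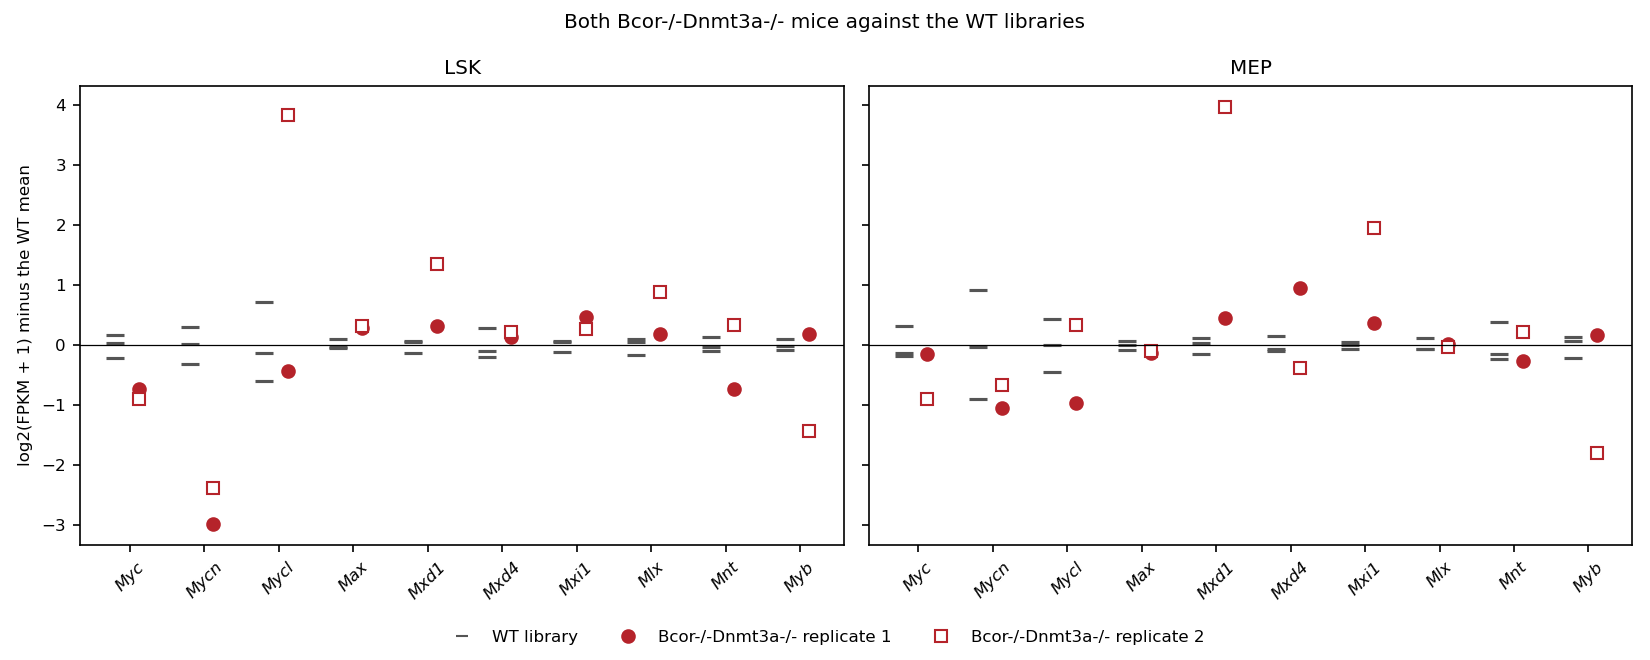
Log2(FPKM + 1) of each Bcor-/-Dnmt3a-/- replicate minus the WT mean, in LSK (left) and MEP (right), with the WT libraries as dashes. Replicates 1 and 2 lie on the same side of WT for Myc and Mycn in LSK and close together for Max in both cell types, and they lie far apart for Mycl and Myb in LSK and for Mxd1, Mxi1 and Myb in MEP.

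Summed over the family, the RNA of Myc, Mycn and Mycl exceeded that of Mxd1, Mxd4, Mxi1 and Mnt in every WT, Dnmt3a-/- and Bcor-/- library. In WT LSK the ratio of the sums was 1.60, 2.31 and 1.79, and in WT MEP it was 1.74, 1.96 and 2.93. It was 0.942 and 0.990 in Bcor-/-Dnmt3a-/- LSK and 1.29 and 0.244 in Bcor-/-Dnmt3a-/- MEP, below the lowest WT library in each of the 4 cases. In Bcor-/- MEP the ratio was 4.45 and 3.67, above all WT libraries, while Bcor-/- LSK (1.82 and 1.67) lay within the WT range. Mycl made up much of the sum in Bcor-/-Dnmt3a-/- LSK replicate 2, and with Myc and Mycn alone its ratio was 0.645, against 0.932 in replicate 1. The ratio counts RNA only and was not tested.

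**Figure D4:**
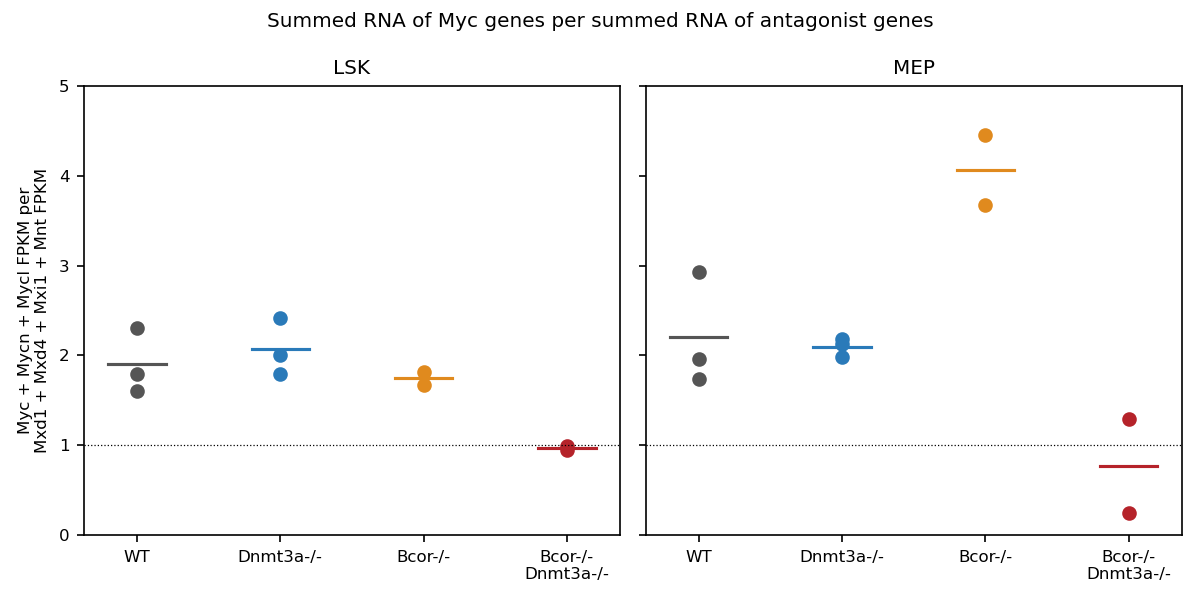
Summed FPKM of Myc, Mycn and Mycl divided by the summed FPKM of Mxd1, Mxd4, Mxi1 and Mnt in each library, by genotype, for LSK (left) and MEP (right), with lines for the means and a dotted line at 1. The 4 Bcor-/-Dnmt3a-/- libraries (0.942 and 0.990 in LSK, 1.29 and 0.244 in MEP) lie below the WT libraries, and the 2 Bcor-/- MEP libraries (4.45 and 3.67) lie above them.

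Loss of Bcor alone gave 1 call in each cell type, Myc in MEP and Mlx in LSK. Myc was 144 and 142 FPKM in Bcor-/- MEP, against 67.6, 70.3 and 95.7 in WT and 71.3 to 88.5 in Dnmt3a-/-. Both Bcor-/- libraries lay above every other MEP library, with a log2 fold change of 0.88 ± 0.23 and an unadjusted p of 0.0041, but the adjusted p was 0.41. The erythroblast sum of the same libraries was below WT (864 and 756 FPKM against 940 to 1557), and its part in the Myc value was not tested. Myc was the only one of the 10 genes called in this comparison, in which 2.76% of all genes were called. Mycn was 4.15 and 4.59 FPKM in Bcor-/- MEP, within the WT range, and its log2 fold change of 0.71 ± 0.49 was not called (adjusted p = 1), except without WT replicate 3. Mxi1 was 13.9 and 14.5 FPKM (log2 fold change 0.20 ± 0.36) and Mlx was 34.3 and 37.4 FPKM (0.20 ± 0.10, adjusted p = 0.98), both slightly above the WT libraries.

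In Bcor-/- LSK, Mlx was the single gene of the 10 that was called, against 13.2% of all genes. The count was 2 without WT replicate 1 and also rose without Bcor-/- replicate 1, and no share of all genes is given here for these fits. Mlx was 20.3, 24.0 and 24.8 FPKM in WT LSK, 17.5 to 23.4 in Dnmt3a-/-, and 49.0 and 66.5 in Bcor-/-. The Bcor-/- libraries lay above all others of the cell type, and the log2 fold change was 1.28 ± 0.23 (adjusted p = 0.021), between 1.06 and 1.496 with single libraries left out. In Bcor-/-Dnmt3a-/- LSK, Mlx was 26.1 and 43.4 FPKM, also above WT, but the log2 fold change of 0.54 ± 0.23 (adjusted p = 0.11) was just under the fold threshold. It was 0.18 without replicate 2 and 0.89, which was called, without replicate 1. In the GENCODE annotation of GRCm38, 385 of the 1999 exonic bases of Mlx (19.3%) overlap exons of Psmc3ip on the opposite strand. The strandedness of the libraries is not given in the sources used here, so fragments of this stretch could belong to either gene. Psmc3ip was 16.6 to 20.9 FPKM in WT LSK, compared with 24.3 and 21.8 after loss of Bcor, and the neighbouring Coasy was 19.99 to 25.4 FPKM in WT and 35.8 and 39.8 in Bcor-/-. The same annotation gives smaller overlaps with opposite-strand exons for Myb (6.26% of exonic bases), Mxd4 (6.06%) and Mxi1 (2.84%).

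The other members differed less in Bcor-/- LSK, where the groups did not overlap for 6 of the 10 members and for 54% of all genes. Mxi1 was 18.5 and 22.8 FPKM against 13.3 to 15.2 in WT, without overlap, and its log2 fold change of 0.48 ± 0.13 (adjusted p = 0.06) was under the fold threshold. Myb was 264 and 313 FPKM against 205 to 231 in WT, also without overlap (0.41 ± 0.36, adjusted p = 0.54). Mxd1 (6.49 and 7.88 FPKM) and Mnt (9.16 and 8.38) both lay below the WT libraries, with log2 fold changes of -0.46 ± 0.26 and -0.52 ± 0.28 that were not called (adjusted p = 0.32 and 0.29). Mycn was 10.4 and 5.56 FPKM and Myc 101 and 102 FPKM, both groups overlapping WT.

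Myb separated the Bcor-/-Dnmt3a-/- mice in the same way in both cell types. In LSK, Myb was 213, 205 and 231 FPKM in WT, 248 in replicate 1 and 80.1 in replicate 2. In MEP it was 191, 157 and 202 FPKM in WT, 204 in replicate 1 and 52.1 in replicate 2. Replicate 1 thus lay just above and replicate 2 far below the WT libraries, and replicate 2 is the mouse with the higher erythroblast sums. The log2 fold changes of -0.62 ± 0.36 in LSK (adjusted p = 0.24) and -0.81 ± 0.45 in MEP (adjusted p = 0.19) were not called. They became 0.19 and 0.16 without replicate 2, so the genotype as a group gives no direction for Myb.

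Loss of Dnmt3a alone gave no call by limma. None of the 10 passed in Dnmt3a-/- LSK or MEP, against 0.443% and 0.412% of all genes. No member had an unadjusted p under 0.05 in LSK, and 1 did in MEP. This was Mlx, with 37.0, 36.7 and 34.6 FPKM against 29.6, 33.8 and 29.7 in WT, a log2 fold change of 0.21 ± 0.09 (adjusted p = 1). Over all 10 the log2 fold changes against WT lay between -0.25 and 0.15 in LSK and between -0.34 and 0.21 in MEP. The groups did not overlap for 3 of the 10 in MEP, against 10.4% of all genes, and for 0 in LSK, against 9.61%. The 3 were Max, Mxi1 and Mlx, each above WT.

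The double knockout was also compared with loss of Bcor alone, since both carry the Bcor deletion. In LSK 5 of the 10 genes were called, against 30.6% of all genes. Myc (-0.63 ± 0.14, adjusted p = 0.01), Mycn (-2.11 ± 0.31, adjusted p = 0.0015), Mlx (-0.74 ± 0.25, adjusted p = 0.051) and Myb (-1.02 ± 0.40, adjusted p = 0.083) were lower in Bcor-/-Dnmt3a-/-, and Mxd1 was higher (1.30 ± 0.29, adjusted p = 0.01). The call of Myc was lost without Bcor-/-Dnmt3a-/- replicate 2 (-0.55), that of Mlx without Bcor-/-Dnmt3a-/- replicate 1 (-0.39) or Bcor-/- replicate 2 (-0.53), and that of Myb without Bcor-/-Dnmt3a-/- replicate 2 (-0.21) or either Bcor-/- library. The count was 3 without Bcor-/- replicate 2 or Bcor-/-Dnmt3a-/- replicate 2, against 26.1% and 33.8% of all genes. In MEP 4 of the 10 were called, against 27.9% of all genes. Myc fell by 1.40 on the log2 scale (SE 0.25, adjusted p = 0.006), from 144 and 142 to 69.4 and 41.0 FPKM, which is back to or below the WT level. Mycn (-1.56 ± 0.54, adjusted p = 0.066) was lower as well, whereas Mxd1 (2.51 ± 0.86, adjusted p = 0.065) and Mxi1 (0.96 ± 0.40, adjusted p = 0.11) were higher. The Myc call held with every library left out in turn, whereas the Mxi1 call was lost in 9 of these 10 fits and the Mycn call in 3. The Mxd1 call was lost without Bcor-/- replicate 1, and its value ranged from 0.76 without Bcor-/-Dnmt3a-/- replicate 2 to 4.27 without replicate 1. The number called in MEP was lower without either Bcor-/- library, and the share of all genes in these fits is not given here.

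Effects were compared between the cell types on the LSK minus MEP difference of each mouse. For Bcor-/-Dnmt3a-/- against WT, the effect differed for 2 of the 10 genes at an adjusted p under 0.05, against 20% of all 10773 genes tested in both cell types. The Mycn effect was -2.68 in LSK and -0.85 in MEP, a difference of -1.83 ± 0.47 (adjusted p = 0.028). The Max effect was 0.31 in LSK and -0.12 in MEP, a difference of 0.42 ± 0.13 (adjusted p = 0.046). The Mycn difference no longer passed with a pseudocount of 0.1, without the filter on low values or with variance weights by genotype, nor without WT replicate 1, WT replicate 2 or Bcor-/-Dnmt3a-/- replicate 1, and the Max difference passed in only 2 of the 10 fits that left out a library. The count was 0 without WT replicate 1 or 2, where the share of all genes also fell, to 5.69% and 5.95%. It was 1 without WT replicate 3 (15.5% of all genes) or any Dnmt3a-/- library (12.6% to 15.5%). The difference was -0.30 ± 0.22 for Myc (adjusted p = 0.35), so a separate response of Myc in LSK and MEP was not shown. For Bcor-/- against WT, none of the 10 genes passed with the adjusted p of limma, against 0.251% of all genes. No share of all genes is given here at an unadjusted p under 0.05, so a count there is no result about the members. At that threshold 5 of the 10 passed. These were Myc (-1.07 ± 0.22, adjusted p = 0.073), Mlx (1.08 ± 0.24, adjusted p = 0.087), Myb (0.51 ± 0.16, adjusted p = 0.15), Mycn (-1.28 ± 0.47, adjusted p = 0.2) and Mnt (-0.52 ± 0.22, adjusted p = 0.25). With variance weights by genotype Myc, Mlx and Myb passed the adjusted p, and the count also rose when either Bcor-/-Dnmt3a-/- library was left out. The share of all genes in these fits is not given here.

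Of the 4 further network genes, Mxd3, Mga and Mlxip were tested in both cell types. For Bcor-/-Dnmt3a-/- against WT, 1 of these 3 was called in LSK and 2 in MEP, against 28.3% and 30.9% of all genes. Mlxip, the nutrient-sensing partner of Mlx also called MondoA, was 28.6, 24.7 and 28.3 FPKM in the WT LSK libraries, compared with 52.7 and 49.9 for Bcor-/-Dnmt3a-/- LSK. In MEP it was 11.5, 7.88 and 11.1 FPKM in the WT libraries, compared with 33.1 and 16.4 for Bcor-/-Dnmt3a-/-. It was called higher in both, by 0.89 ± 0.14 in LSK (adjusted p = 0.0014) and 1.14 ± 0.30 in MEP (adjusted p = 0.019). Mxd3, the Mxd member seen in dividing cells, was called higher in MEP (1.05 ± 0.39, adjusted p = 0.071), with 10.1 FPKM in replicate 1 inside the WT range and 27.3 in replicate 2, and the number of these genes called in MEP fell from 2 to 1 without WT replicate 1, WT replicate 3 or Bcor-/-Dnmt3a-/- replicate 2. In LSK a second gene was called without Bcor-/-Dnmt3a-/- replicate 2. Mga was not called, with log2 fold changes of -0.23 in LSK and -0.10 in MEP. None of the 3 was called by limma in Bcor-/- cells of either type, against 13.2% of all genes in LSK and 2.76% in MEP. An unadjusted p under 0.05 was seen for 2 in LSK and 0 in MEP. The 2 were lower, against 11.1% of all genes lower and 13.9% higher at this threshold in LSK.

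Of 81 genes commonly described as activated by Myc, which serve nucleotide and polyamine synthesis, ribosome production and the cell cycle, 80 were tested in MEP and 47 were called lower in Bcor-/-Dnmt3a-/- against WT, while 3 were called higher. The median log2 fold change of the list was -0.65, against 0.02 for all genes, of which 12.4% were called lower. Srm, the spermidine synthase, was 188 to 190 FPKM in the WT MEP libraries, compared with 69.7 and 88.9 for Bcor-/-Dnmt3a-/- MEP (-1.25 ± 0.11, adjusted p = 0.00038). Cad, which starts pyrimidine synthesis, was 78.8 to 94.4 and then 33.5 and 47.6 FPKM (-1.09 ± 0.15, adjusted p = 0.0014), and Dctpp1, a nucleotide pyrophosphatase, was 123.1 to 148 and then 82.0 and 49.3 FPKM (-1.08 ± 0.19, adjusted p = 0.004). The 3 genes called higher were Pkm (1.80 ± 0.50), Mthfd2 (1.32 ± 0.41) and Slc1a5 (1.10 ± 0.24), of glycolysis, folate metabolism and amino acid uptake. The replicates were alike here, since 69 of the 80 genes lay below all WT libraries in replicate 1 and 65 in replicate 2, against 41.6% of all genes in each, although Myc itself lay within the WT range in replicate 1. The median of the list was -0.68 without replicate 1 and -0.66 without replicate 2, against -0.004 and -0.02 for all genes. After centring on the median, 56 were called lower, against 19.6% of all genes. In Bcor-/- MEP, where Myc was highest, none of the 80 genes was called by limma or had an unadjusted p under 0.05. Of all genes 2.76% were called there, and the median was -0.01 both for the list and for all genes.

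In LSK, where Myc and Mycn fell in both Bcor-/-Dnmt3a-/- mice, 14 of the 81 listed genes were called lower and 4 higher, with a median of -0.30 against 0.02 for all genes. Called genes made up 22.2% of the list, against 28.3% of all genes, of which 13.3% were called lower and 15% higher. At an unadjusted p under 0.05 by limma, 35 of the list were lower and 4 higher. No share of all genes is given here at that threshold, so these counts are no result about the list. After centring on the median 23 were called lower, against 16.2% of all genes, and after quantile normalization 24. In replicate 1, 50 of the 81 lay below all WT libraries and in replicate 2 it was 56, against 37.8% and 40.9% of all genes. Dctpp1 was again lower (-1.34 ± 0.15, adjusted p = 0.00027), with the cyclin Ccnd2 (-1.08 ± 0.22, adjusted p = 0.0056) and the purine enzyme Paics (-0.89 ± 0.19, adjusted p = 0.0083). Higher were Tfrc, the transferrin receptor that is also 1 of the erythroblast markers (2.33 ± 0.15, adjusted p = 0.000035), Mthfd2 (1.49 ± 0.16, adjusted p = 0.00024) and Slc7a5 (0.88 ± 0.26, adjusted p = 0.033). The count called lower was 25 without replicate 1 and 9 without replicate 2, against 19% and 15.5% of all genes, so the list stood above the background without one mouse and below it without the other. In Bcor-/- LSK, 4 of the 81 were called higher and 1 lower, 6.17% in all, against 7.2% higher and 6.03% lower, 13.2% in all, among all genes. The median there was 0.17 against -0.01 for all genes, and 20 genes were higher and 3 lower at an unadjusted p under 0.05, against 13.9% and 11.1% of all genes. Above all WT libraries lay 43 of the 81 in replicate 1 and 59 in replicate 2, against 34.1% and 38.1% of all genes.

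**Figure D5:**
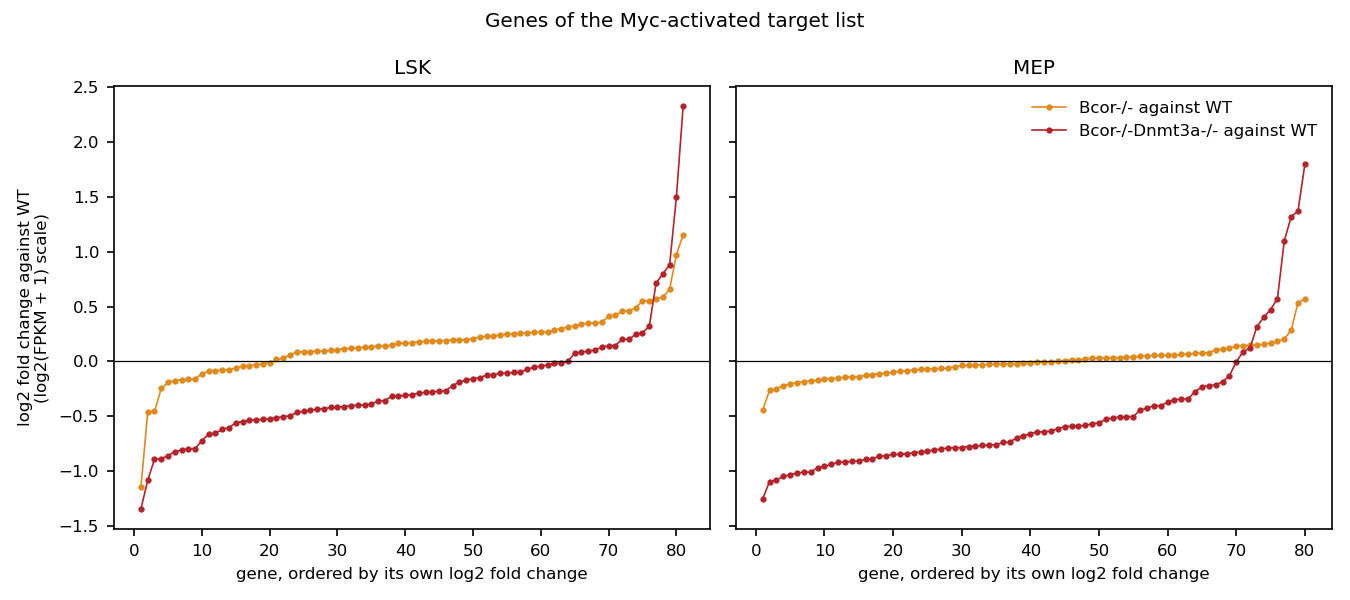
Log2 fold change against WT of the genes listed as activated by Myc, each curve ordered by its own values, for Bcor-/- and Bcor-/-Dnmt3a-/- in LSK (81 genes, left) and MEP (80 genes, right). The Bcor-/-Dnmt3a-/- curve in MEP lies below 0 for most genes (median -0.65), and the Bcor-/- curve in MEP lies around 0 (median -0.01).

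Genes commonly described as repressed by Myc moved in both directions. In MEP 4 of the 11 tested were called higher in Bcor-/-Dnmt3a-/- and 1 lower, with a median of 0.98, against 18.5% of all genes higher and 12.4% lower. Cdkn1b, the p27 inhibitor of the cell cycle, was 14.5 to 16.2 FPKM in the WT MEP libraries, compared with 29.5 and 113 for Bcor-/-Dnmt3a-/- MEP (1.87 ± 0.43, adjusted p = 0.012). Gadd45b (1.80 ± 0.29) and Cdkn2c (1.2 ± 0.19), a stress gene and another cycle inhibitor, were higher too (both adjusted p = 0.0028), and Ndrg2 was lower (-0.96 ± 0.32, adjusted p = 0.049). In LSK 3 of 12 were called higher (Gadd45b, Gadd45a and Cdkn1b, by 1.37, 1.14 and 0.80, with adjusted p of 0.081, 0.067 and 0.02) and 3 lower (Ndrg1, Ndrg2 and Cdkn1c, by -2.52, -1.32 and -1.04), with a median of -0.35, against 15% of all genes higher and 13.3% lower. In replicate 1, Gadd45b (17.9 FPKM) and Gadd45a (18.5) were close to WT (12.6 to 17.3 and 13.8 to 16.9), and replicate 2 (86.8 and 63.8) carried the difference. The total called was 3 without WT replicate 3 in LSK, against 26% of all genes, and 8 without Bcor-/-Dnmt3a-/- replicate 1 in MEP, against 41.8%.

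The 17 cofactors listed for the network included Sin3a, Sin3b, Ncor1, Hdac1 and Hdac2, which belong to repressor complexes. None of the 17 was called higher by limma in Bcor-/-Dnmt3a-/-, with 0 rising at an unadjusted p under 0.05 in either cell type. In MEP 4 were called lower, among them Ruvbl2 (-0.89 ± 0.09), Ruvbl1 (-0.89 ± 0.16) and the acetyltransferase Kat2a (-0.72 ± 0.12), and in LSK 2 were, the scaffold Wdr5 (-0.64 ± 0.10) and Hdac2 (-0.64 ± 0.18). These are 23.5% of the list in MEP and 11.8% in LSK, against 12.4% and 13.3% of all genes called lower. The LSK count was 4 without WT replicate 1, and it rose without Bcor-/-Dnmt3a-/- replicate 1 and fell without replicate 2. The share of all genes called rose in both of the latter fits, and it is not given here for the fit without WT replicate 1. Of the 13 genes of Myc protein turnover tested, Fbxw7, the ubiquitin ligase subunit that marks Myc for degradation, was higher in both cell types. It was 7.58 to 8.68 FPKM in the WT LSK libraries, compared with 15.4 and 19.0 for Bcor-/-Dnmt3a-/- LSK (0.98 ± 0.15, adjusted p = 0.0015), and 5.44 to 7.86 and then 12.8 and 10.8 FPKM in MEP (0.68 ± 0.19, adjusted p = 0.025). The MEP call of Fbxw7 was lost without WT replicate 1, its lowest WT library (5.44 FPKM). Ppp2r5a, a phosphatase subunit, was higher as well (0.86 ± 0.14 in LSK and 1.47 ± 0.22 in MEP). The deubiquitinases Usp22 in LSK (-0.61 ± 0.15) and Usp36 in MEP (-0.61 ± 0.12) and the ligase Trim32 in LSK (-0.65 ± 0.28) were lower. The number of turnover genes called was 2 in LSK and 1 in MEP without WT replicate 1, against 4 and 3 with all libraries, and 6 in MEP without Bcor-/-Dnmt3a-/- replicate 2. With all libraries 30.8% of these genes were called in LSK and 23.1% in MEP, against 28.3% and 30.9% of all genes. Myc protein was not measured.

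Among 26 tested targets and partners of Myb, 3 were called higher and 4 lower in Bcor-/-Dnmt3a-/- LSK, and 7 higher and 2 lower in MEP. These shares of 26.9% and 34.6% were close to the 28.3% and 30.9% of all genes. Kit, the stem cell factor receptor that also defines the sort, was 148 to 174 FPKM in the WT LSK libraries, compared with 47.7 and 19.4 for Bcor-/-Dnmt3a-/- LSK (-2.37 ± 0.29, adjusted p = 0.00049), and it was lower in MEP too (-1.51 ± 0.23, adjusted p = 0.0022). Gata2 (-3.08 ± 0.31) and Lmo2 (-1.89 ± 0.15) were lower in LSK, while Ccne1 (1.97 ± 0.26), Birc3 (1.29 ± 0.42) and Gfi1b (0.64 ± 0.27) were higher. In MEP, Gfi1 (2.37 ± 0.42), Cebpe (2.03 ± 0.56) and Birc3 (1.92 ± 0.26) were higher and Gfi1b (-0.94 ± 0.33) lower. Without replicate 1 the number called was 15 in LSK and 14 in MEP, against 7 and 9 with both, while the share of all genes rose to 39.6% and 41.8%. It was 5 in MEP without WT replicate 2, against 25.8% of all genes. In Bcor-/- LSK 8 of the 26 were called higher and 5 lower, against 13.2% of all genes in either direction, and 6 of the 8 were the granule proteins Mpo, Elane, Prtn3 and Ctsg and the granulocytic factors Cebpe and Gfi1 (1.97 to 3.46). Mpo, Elane and Prtn3 are also on the granulocyte marker list, whose summed FPKM was 16125 and 23036 in Bcor-/- LSK against 3269 to 12898 in WT, and its part in this count was not tested. In Bcor-/- MEP 4 of the 26 were called higher and 0 lower (15.4%), against 2.76% of all genes, and none of them had an adjusted p under 0.05 by limma. Of the other Myb genes only Mybl2 was tested, and it had no unadjusted p under 0.05 in Bcor-/- or Bcor-/-Dnmt3a-/- cells, although it was called without Bcor-/-Dnmt3a-/- replicate 2 in LSK and without replicate 1 in MEP.

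The genes most like Myc and Myb were sought by the root mean square difference of their log2 ratio to the WT mean over the 10 libraries of a cell type. For Myc in LSK, whose own root mean square ratio was 0.396, these were Mllt11 (0.0959), Tmem5 (0.101), Suclg2 (0.119), Ptpn12 (0.122) and Gid4 (0.122). In MEP no gene came as close, and the nearest were Spint2 (0.225), Car9 (0.25), Gp5 (0.25), Rpp38 (0.251) and Tradd (0.263), with 0.507 for Myc itself. For Myb in LSK (0.495) they were Ttk (0.108), Thra (0.127), Pomt1 (0.142), Tnfrsf21 (0.156) and Kif15 (0.16), of which Ttk and Kif15 act in mitosis. In MEP (0.593) they were Athl1 (0.178), Ripk3 (0.194), BC026585 (0.196), 2700081O15Rik (0.197) and Lipt2 (0.198), of which 2 are known only by clone names. These distances describe 10 libraries that share their scaling, and they were not tested.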

How the data were processed

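The deposited values are FPKM, in 1 table for LSK and 1 for MEP, each holding 24315 genes in 10 libraries. Their processing notes name STAR 2.5.1b, SAMtools 1.9, Cufflinks 2.2.1 and the build mm9, with no role or order, and the scaling between libraries is not given in the sources used here. Read counts were not used here, so depth is unknown and no counting error was computed. Summed FPKM ranged from 413482 to 625758 per library.

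FPKM were converted to log2 after adding 1, genes averaging 1 FPKM or more were kept (11952 in LSK, 10933 in MEP), and the 4 genotypes of a cell type were fitted together with limma 3.58.1 (R 4.3.3, two-sided moderated test with a mean-variance trend). Calls needed a fold change above 1.5 with p under 0.05 before adjustment (the study's methods give both thresholds without saying whether p was adjusted), and p-values were adjusted by Benjamini-Hochberg over all tested genes. Effects in LSK and MEP were compared on the difference between both libraries of each mouse, at an adjusted p under 0.05. The libraries are separate mice, apart from the 1 that names 2. The fitting step was tested on simulated data.

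The text names all 10 members, the tested network genes, per list up to 3 genes called in each direction with the largest change in Bcor-/-Dnmt3a-/- against WT, the 5 genes most like Myc and Myb in each cell type, and markers that moved with them. Members and lists were chosen with earlier results of these data known. The alternatives tried were other pseudocounts, filters, scalings, variance models and call rules, a replicate block, and leaving out each library. Epb42, Ahsp and Cip2a matched no symbol. Figures were drawn with matplotlib 3.10.9 (Python 3.11.15).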

Additional observations from a re-analysis of the deposited data

Results flagged for a closer look

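The Mycn effect of Bcor-/-Dnmt3a-/- against WT differed between the cell types by the test of the difference itself, at -1.83 ± 0.47 (log2, LSK minus MEP, adjusted p = 0.028 by limma). Mean FPKM went from 12.05 in WT to 1.05 in the double knockout in LSK, and from 2.72 to 0.834 in MEP, where WT spread from 0.767 to 5.20 FPKM. The Max effect differed as well, by 0.42 ± 0.13 (adjusted p = 0.046), with both Bcor-/-Dnmt3a-/- libraries above WT in LSK and below it in MEP. The Mycn difference no longer passed with a pseudocount of 0.1 (adjusted p = 0.052), without the filter on low values (0.10) or with variance weights by genotype (0.42), and the Max difference was lost after quantile normalization (0.12), without the trend (0.054) and with variance weights (0.44). The erythroblast and B cell marker sums of the Bcor-/-Dnmt3a-/- libraries lay above WT in both cell types, and their part in these differences was not tested.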

How the results depend on the processing

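None of the 16 called log2 fold changes of these genes changed sign under any alternative, but 11 lost their call in at least 1. Of the 64 not called, 30 changed sign and 17 reached a call in at least 1 alternative. With only the compared genotypes in the fit, the number called was 3 for Bcor-/-Dnmt3a-/- against Bcor-/- in LSK and 2 in MEP, and 0 for Bcor-/-Dnmt3a-/- against WT in MEP. With the adjusted p these counts were 3, 1 and 1, and Bcor-/- against WT in MEP gave 0. With a fold above 2 the count was 1 for Bcor-/-Dnmt3a-/- against WT in LSK, 3 against Bcor-/- in LSK and 0 for Bcor-/- against WT in MEP. The number whose Bcor-/-Dnmt3a-/- effect differed between LSK and MEP was 1 with a pseudocount of 0.1, without a filter, with a minimum of 5 FPKM or without the trend, 0 with variance weights by genotype, and 5 at the unadjusted p. For the Bcor-/- effect it was 3 with variance weights and 5 at the unadjusted p. The unadjusted p for this difference was added after the data had been seen. Shares of all genes are not given for these alternatives.

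Leaving out single libraries moved the number called between 3 and 6 for Bcor-/-Dnmt3a-/- against WT in LSK and between 1 and 4 in MEP, with the highest count without Bcor-/-Dnmt3a-/- replicate 1 in each. It ranged from 1 to 3 for Bcor-/- against WT in LSK and from 1 to 2 in MEP, and from 3 to 6 and from 1 to 5 for Bcor-/-Dnmt3a-/- against Bcor-/-. The number whose effect differed between the cell types ranged from 0 to 5 for Bcor-/-Dnmt3a-/- and from 0 to 3 for Bcor-/-. Several Bcor-/-Dnmt3a-/- values against WT had opposite signs in the 2 mice of this genotype. Leaving out each in turn gave ranges of -0.43 to 3.84 for Mycl, -0.73 to 0.34 for Mnt and -1.42 to 0.19 for Myb in LSK, and of -0.39 to 0.96 for Mxd4, -0.96 to 0.34 for Mycl and -1.79 to 0.16 for Myb in MEP. Mycl in Dnmt3a-/- LSK (-0.25) also changed sign, to 0.12 without WT replicate 2, as did values near 0 of other members. The cause was not tested. The replicate numbers gave no pairing, since same-numbered WT and Dnmt3a-/- libraries had correlations of their deviations of -0.035 to 0.0573 in LSK and -0.193 to 0.336 in MEP. With a replicate block Mlx in Bcor-/-Dnmt3a-/- LSK against WT became 0.59 and was called, and the counts of called genes stayed within 1.5 times. With 2 libraries in a group and depth unknown, absence of a call does not show absence of a change.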
